A study of Mus musculus with 6 samples.

Results

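Hepatic iron handling was examined through 10 genes of the 55385 in the count table: the hepcidin genes Hamp and Hamp2, 3 genes that act on hepcidin (Bmp6, Hfe and Tfr2), the transferrin gene Trf and its receptor gene Tfrc, the iron exporter gene Slc40a1, and the ferritin genes Fth1 and Ftl1. The members were listed by name and found by matching the gene identifiers of the table to GENCODE M21 symbols, and all 10 passed the filter on low counts. Polyadenylated RNA had been sequenced with strand-specific libraries from whole livers of 6 male mice, wild-type C57BL/6 per the study's methods, 1 library for each animal. All mice were 6 to 8 weeks old at entry and ate a high-fat diet (HFD) for 10 weeks before and a further 12 weeks after an operation. The operation was sham in 3 mice (Sham 1, 2 and 3) and vertical sleeve gastrectomy (VSG), which removes most of the stomach, in the other 3 (VSG 4, 5 and 6). No lean or unoperated mouse is among these libraries.

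Hepcidin, the product of Hamp, is a peptide hormone made by hepatocytes that binds the exporter ferroportin (Slc40a1) and causes its breakdown, so that less iron enters the blood. Its transcription is driven by BMP6 from sinusoidal endothelial cells, acting through hemojuvelin, HFE and transferrin receptor 2 on SMAD proteins, and by interleukin-6, acting through STAT3. Inside the cell, iron regulatory proteins bind iron-responsive elements (IREs), short RNA hairpins that block translation of ferritin and ferroportin mRNAs from the 5′ end and protect the transferrin receptor mRNA from decay at the 3′ end. An mRNA level therefore gives only part of the control of the ferritins and ferroportin, and protein was not measured here.

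The 2 hepcidin genes are shown first by sequence, since they moved in opposite directions. The following 120 bases end next to the RefSeq start of each gene on the minus strand of chromosome 7 in the RefSeq promoter table (GRCm38.p6), at chr7:30944030-30944149 for Hamp and chr7:30924182-30924301 for Hamp2. The RefSeq start of Hamp2 lies inside the longer M21 gene used for counting (chr7:30922372-30924681), which also includes a transcript with an earlier start, so the Hamp2 stretch falls within that gene. Capitals mark letters of the STAT motif TTCNNNGAA and of GGCGCC, the core of BMP-responsive elements.
Hamp: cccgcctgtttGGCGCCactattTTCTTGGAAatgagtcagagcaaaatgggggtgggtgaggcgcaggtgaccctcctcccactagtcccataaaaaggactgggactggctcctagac
Hamp2: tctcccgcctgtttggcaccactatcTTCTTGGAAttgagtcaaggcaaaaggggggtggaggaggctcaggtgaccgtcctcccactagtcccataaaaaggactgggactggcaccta

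The aligned stretches were 86.2% identical, with 106 matching bases, 11 mismatches and 6 gap positions. The STAT letters stood 97 to 89 bases before the start in Hamp and 94 to 86 bases before it in Hamp2, and did not differ between the genes. GGCGCC stood 109 to 104 bases before the start of Hamp. In Hamp2 the aligned letters carried the substitution G4A, written with the Hamp base first and counted from 1 at the first base of the motif. Each motif was searched separately on both strands, over windows of 250 bases before to 50 bases after the start. Of 32851 RefSeq promoters, 8.3% held the STAT letters, 11.9% held GGCGCC and 7.15% held the E-box letters CACGTG. Promoters were found for 8 of the 10 members. Outside the hepcidin genes, GGCGCC was found in a promoter of Tfrc and CACGTG in that of Bmp6. These matches describe letters only, and no binding was measured.

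The IREs are printed next, since they divide the members that share this form of control. The search asked for the loop CAGTGN, a stem of 5 base pairs (G with T allowed) and an unpaired C, in untranslated regions of GENCODE M21 transcripts (GRCm38), with the loop and the unpaired C in capitals. A site was found in 4 members and not in the other 6.
Fth1, 5′ untranslated region, chr19:9982733-9982759, plus strand: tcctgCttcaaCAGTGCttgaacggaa
Ftl1, 5′ untranslated region, chr7:45459780-45459806, minus strand: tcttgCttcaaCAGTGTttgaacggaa
Slc40a1, 5′ untranslated region, chr1:45925466-45925492, minus strand: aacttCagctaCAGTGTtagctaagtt
Tfrc, 3′ untranslated region, chr16:32631220-32631246, plus strand: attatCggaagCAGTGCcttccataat
Tfrc, 3′ untranslated region, chr16:32631599-32631625, plus strand: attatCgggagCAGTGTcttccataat
Tfrc, 3′ untranslated region, chr16:32631664-32631690, plus strand: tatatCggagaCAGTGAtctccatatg
Tfrc, 3′ untranslated region, chr16:32631711-32631737, plus strand: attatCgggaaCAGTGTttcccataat

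The same search matched 160 of 21901 protein-coding genes (0.731%), 31 of them (0.142%) in a 5′ and 129 (0.589%) in a 3′ untranslated region. By this search Tfrc had 4 sites at its 3′ end, while the ferritins and Slc40a1 had 1 site each at the 5′ end. Elements that depart from the pattern would be missed.

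Libraries held 22804397 to 24191778 counts, of which the 10 most abundant genes took 17.0 to 23.7%. Mitochondrial genes took 5.79, 6.58 and 5.59% in Sham and 4.14, 4.94 and 5.01% in VSG libraries, lower in every VSG liver, and the part of this in the changes below was not tested. Levels are given as CPM, counts scaled to library size with TMM factors, and 3 counts, the floor used here, correspond to 0.124 to 0.132 CPM of the raw totals. Floors and binomial intervals cover counting error only. Changes are log2 fold changes (log2FC) of VSG against Sham with their standard error (SE), tested by edgeR's quasi-likelihood test with Benjamini-Hochberg adjustment over 14454 genes, and a call is an adjusted p under 0.05. Of the 7 hepatocyte markers (Alb, Ttr, Apoa1, Apob, Cps1, Tat, Hnf4a) none was called, and their summed level was 72435, 109671 and 74316 CPM in Sham and 57039, 85821 and 86009 CPM in VSG livers. In whole liver, fewer cells of a type and less RNA per cell cannot be told apart.

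Hamp and Tfr2 rose and Hamp2 and Ftl1 fell after VSG, and the remaining 6 members did not pass the test. The 4 calls among 10 members stand beside 14.7% of all tested genes called, with 6.79% higher and 7.87% lower. The groups did not overlap in 6 members, against 39.7% of all tested genes. The median log2 fold change was -0.13 over the members and 0.03 over all genes. The count of 4 was 3 without Sham 1 or VSG 4, 2 without Sham 2, 1 without Sham 3 and 1 without VSG 6, in each case with Hamp2 still called. The calls over all genes fell in the same fits, from 2118 to 1214 without Sham 1, 1076 without VSG 4, 797 without Sham 2, 159 without Sham 3 and 210 without VSG 6. Without VSG 5 it was again 4, with Trf called (adjusted p 0.0394) and Tfr2 not (0.0510).

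**Figure D1:**
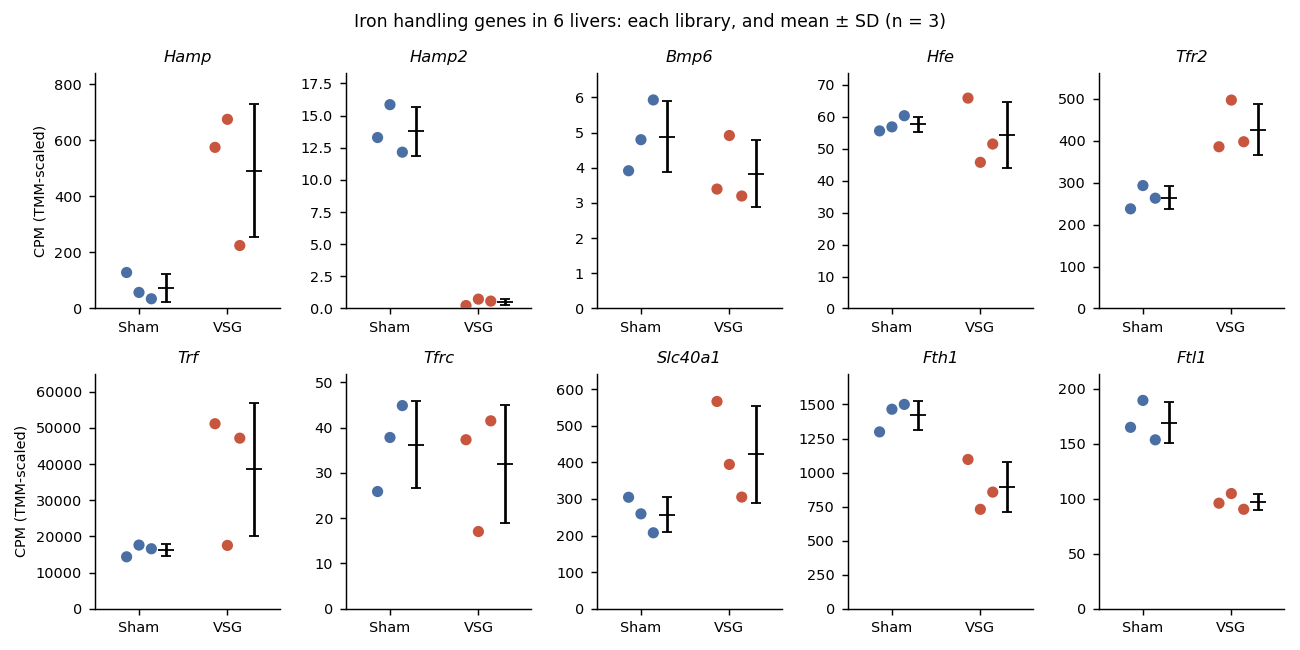
Level of each of the 10 genes (vertical axes, CPM after TMM scaling, from 0) in the 3 Sham (blue) and 3 VSG (red) livers, in the order Sham 1, 2, 3 and VSG 4, 5, 6, with the mean ± SD of each group in black (n = 3). Hamp and Tfr2 lay higher and Hamp2, Fth1 and Ftl1 lower in every VSG liver than in any Sham liver, while VSG 5 sat among the Sham livers for Trf.

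Hamp lies at chr7:30942368-30944032 (GRCm38, minus strand). Its level was 128, 57.2 and 34.6 CPM in Sham 1, 2 and 3 and 575, 675 and 225 CPM in VSG 4, 5 and 6. Every VSG liver exceeded every Sham liver, and within each group the highest library was well above the lowest. The mean went from 73.4 ± 48.9 to 492 ± 237 CPM (SD, n = 3), a log2FC of 2.74 (SE 0.60, adjusted p 0.0313), or 6.70-fold. The direction held in all 13 alternative fits, with log2 fold changes of 2.40 (without Sham 3) to 3.41 (without Sham 1). The adjusted p rose to 0.0939 without Sham 2, 0.112 without Sham 3, 0.0637 without VSG 4 and 0.0610 without VSG 6.

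Hamp2, the duplicate of Hamp found in mice, lies at chr7:30922372-30924681 on the same strand. It had 360, 347 and 320 counts in the Sham libraries and 5, 17 and 12 counts in the VSG libraries. In CPM these were 13.3, 15.9 and 12.2 against 0.226, 0.727 and 0.572. All 3 VSG livers were above the floor of 3 counts, and the groups were far apart. The mean fell from 13.8 ± 1.89 to 0.508 ± 0.256 CPM, a log2FC of -4.74 (SE 0.35, adjusted p 0.00197), or 26.7-fold lower. The call held in all 12 alternative fits that tested the gene, with adjusted p-values of at most 0.0234. It was not tested where 10 counts were asked of every library.

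Because the 2 genes share much of their sequence, the share of Hamp2 in the hepcidin counts was also taken. Hamp2 made up 9.38% of the Hamp and Hamp2 counts in Sham 1 (exact binomial 95% interval 8.48 to 10.4%), 21.7% in Sham 2 (19.7 to 23.8%) and 26.0% in Sham 3 (23.6 to 28.6%). It made up 0.0393% in VSG 4 (0.0128 to 0.0918%), 0.108% in VSG 5 (0.0627 to 0.172%) and 0.254% in VSG 6 (0.131 to 0.444%). All VSG shares were thus far below all Sham shares, beyond counting error. The group means were 19.0 ± 8.63% and 0.134 ± 0.110%, with an exact two-sided permutation p of 0.1 (n = 3 in each group), the smallest that 3 against 3 allows. The coding sequences of 249 bases matched at 233 positions and differed at 16 (93.6% identical), with a longest shared run of 80 bases. How reads with more than 1 possible origin were counted is not given in the sources used here, so the split of counts between the genes is uncertain. The Hamp2 exons share 89 bases with Gm44662 on the other strand, which had 0 to 4 counts per library.

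**Figure D2:**
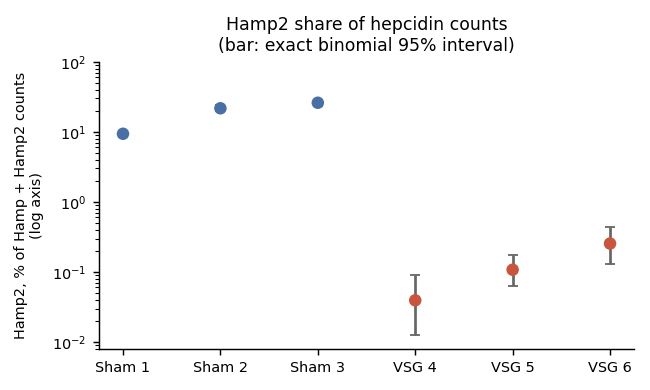
Share of Hamp2 in the summed Hamp and Hamp2 counts of each library (vertical axis, percent, log scale), with exact binomial 95% intervals as bars, Sham in blue and VSG in red. The 3 Sham livers sit between 9.38 and 26.0% and the 3 VSG livers between 0.0393 and 0.254%.

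Of the genes that act on hepcidin, Tfr2, a hepatocyte sensor of iron-loaded transferrin, rose. Its level was 237, 293 and 263 CPM in Sham and 385, 497 and 397 CPM in VSG livers, with no overlap. The mean went from 264 ± 27.8 to 427 ± 61.1 CPM, a log2FC of 0.69 (SE 0.16, adjusted p 0.0340). This was a smaller change than that of Hamp and a less stable call. The adjusted p was 0.0911 without Sham 1, 0.0678 without Sham 2, 0.141 without Sham 3, 0.0510 without VSG 5, 0.0943 without VSG 6 and 0.0603 when libraries were scaled by total counts.

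Bmp6, the ligand, and Hfe, the partner of the transferrin receptors, did not pass the test. Bmp6 was at 3.91, 4.80 and 5.93 CPM in Sham and 3.39, 4.92 and 3.20 CPM in VSG livers, with overlapping groups (log2FC -0.35, SE 0.25, adjusted p 0.355). Its counts were low, at 67 to 156 per library, and 224 of its exon bases lie opposite Txndc5, which had 3387 to 4675 counts. The strand setting of the counting is not given in the sources used here, so reads of Txndc5 in the Bmp6 count cannot be told apart. The 7 sinusoidal endothelial markers (Stab2, Lyve1, Clec4g, Fcgr2b, Oit3, Kdr, Pecam1), from cells that make BMP6, summed to 318 to 385 CPM in Sham and 321 to 399 CPM in VSG livers, with none called. Hfe was at 55.6, 56.8 and 60.3 CPM in Sham and 65.8, 45.7 and 51.5 CPM in VSG livers (log2FC -0.08, SE 0.14, adjusted p 0.707). The Hfe values of VSG livers lay on both sides of the Sham values.

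Trf encodes transferrin, the plasma carrier of iron, and was the most abundant member. Its level was 14366, 17608 and 16590 CPM in Sham and 51151, 17518 and 47164 CPM in VSG livers. VSG 4 and VSG 6 were far above the Sham livers and VSG 5 was among them. The mean went from 16188 ± 1658 to 38611 ± 18376 CPM, and the log2FC of 1.25 (SE 0.50) did not pass the test (adjusted p 0.132). Without VSG 5 it was 1.58 with an adjusted p of 0.0394.

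Tfrc encodes transferrin receptor 1, which takes iron-loaded transferrin into cells. It was at 25.9, 37.8 and 44.9 CPM in Sham and 37.3, 17.1 and 41.5 CPM in VSG livers (log2FC -0.18, SE 0.35, adjusted p 0.741). The groups overlapped and VSG 5 was the lowest of the 6 livers, and without VSG 5 the log2 fold change was 0.10. The summed level of 6 cell cycle genes (Mki67, Top2a, Ccnb1, Cdk1, Bub1, Rrm2), which dividing cells express, was 37.4, 16.3 and 19.1 CPM in Sham and 114, 10.0 and 55.9 CPM in VSG livers, also lowest in VSG 5, and none of them was called. Their part in the Tfrc values was not tested.

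Slc40a1 encodes ferroportin, the exporter that hepcidin acts on. It was at 304, 259 and 207 CPM in Sham and 566, 394 and 305 CPM in VSG livers. The groups were separated only narrowly, with 305 CPM in VSG 6 next to 304 CPM in Sham 1. The log2FC of 0.71 (SE 0.26) did not pass the test (adjusted p 0.107). Kupffer cells, the macrophages of the liver, are rich in ferroportin. Their 7 markers summed to 605, 275 and 401 CPM in Sham and 1878, 616 and 1157 CPM in VSG livers, and 4 of the 7 (Clec4f, Vsig4, Timd4 and Marco) rose while Adgre1, Cd5l and Cd68 did not pass the test. None of these markers was at 0 in any library, and their part in the Slc40a1 values was not tested.

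Ferritin stores iron in a shell of heavy (Fth1) and light (Ftl1) chains. Ftl1 was at 165, 190 and 154 CPM in Sham and 96.0, 105 and 90.5 CPM in VSG livers, with a wide gap between the groups and little spread within them. The mean fell from 169 ± 18.3 to 97.1 ± 7.22 CPM, a log2FC of -0.80 (SE 0.12, adjusted p 0.0141). The adjusted p was 0.0556 without Sham 3 and 0.0687 without VSG 6, and the call held in the other 11 alternative fits.

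Fth1 was at 1299, 1465 and 1501 CPM in Sham and 1096, 730 and 857 CPM in VSG livers. Each VSG liver was below each Sham liver, but the log2FC of -0.67 (SE 0.20) did not pass the test (adjusted p 0.0692). Under DESeq2 the adjusted p was 0.00235, and with scaling by total counts it was 0.0370. The log2 ratio of Fth1 to Ftl1 FPKM was 1.70 ± 0.188 in Sham and 1.81 ± 0.360 in VSG livers (exact two-sided permutation p = 0.7, n = 3 in each group). The ratios of the groups overlapped, and since the smallest p for 3 against 3 is 0.1 this test could not have passed 0.05. Ferritin genes have many processed copies in the mouse genome, and the 14 annotated copies and relatives had 0 to 7 counts per library, but how reads shared with them were counted is not given in the sources used here, so both ferritin values are uncertain. Ftl1 exons also share 355 bases with Gm10252 on the other strand, which had 4 to 12 counts per library, and 109 bases with Gm22133 on the same strand, which had 0.

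**Figure D3:**
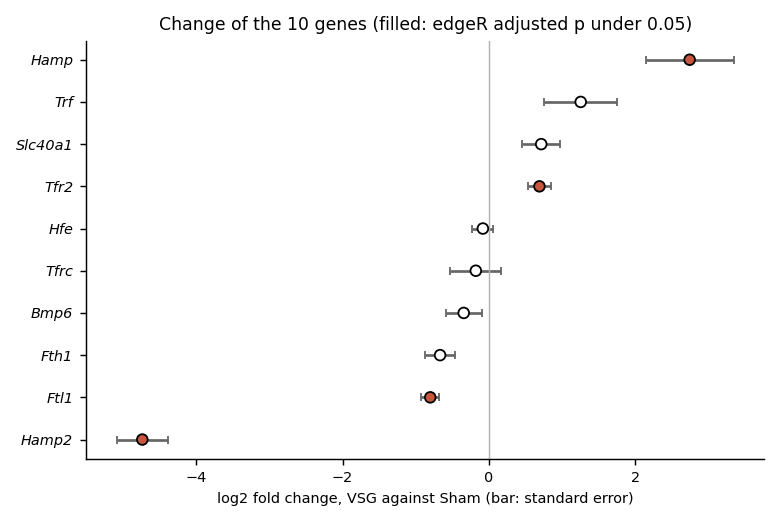
Log2 fold change of VSG against Sham for the 10 genes (horizontal axis), with the standard error as bars and filled points for an edgeR adjusted p under 0.05. Hamp at 2.74 and Hamp2 at -4.74 lie at opposite ends, with Tfr2 at 0.69 and Ftl1 at -0.80 as the other 2 filled points.

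Per length, in mean FPKM over the Sham livers, the order of levels was Trf (4876 ± 499), Fth1 (410 ± 31.1), Hamp (179 ± 119), Ftl1 (126 ± 13.7), Tfr2 (61.0 ± 6.41), Slc40a1 (28.6 ± 5.39), Hamp2 (23.6 ± 3.25), Hfe (16.1 ± 0.689), Tfrc (5.85 ± 1.55) and Bmp6 (1.25 ± 0.259). Hamp and Ftl1, and Slc40a1 and Hamp2, had overlapping FPKM values in the Sham livers and their order is not set by these data. In the VSG livers mean FPKM was 11630 ± 5535 for Trf, 1199 ± 577 for Hamp and 258 ± 53.6 for Fth1. Per length, Hamp thus stood above both ferritins in every VSG liver. In CPM, Fth1 (1096, 730 and 857) stood above Hamp (575, 675 and 225) in VSG 4, 5 and 6. The order of Hamp and Fth1 therefore rests on the lengths used, 410 bases for Hamp and 3469 for Fth1. Hamp2 was lowest there with 0.872 ± 0.440 FPKM, next to Bmp6 at 0.983 ± 0.241 FPKM, and these 2 overlapped. FPKM used the summed exon length of each gene, which can exceed that of the transcript a liver uses.

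The other iron genes were taken from 6 lists with 75 genes in all, of which 70 had enough counts to be tested. Of these 17 rose, 8 fell and 45 did not pass the test, and the groups did not overlap in 39. Over all tested genes 6.79% were called higher, 7.87% lower and 14.7% in either direction, and 39.7% did not overlap. The median log2 fold change was -0.04. The count of 25 calls was 13 without Sham 1, 8 without Sham 2, 1 without Sham 3, 14 without VSG 4 and 3 without VSG 6. Scara5 was the gene left without Sham 3.

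**Figure D4:**
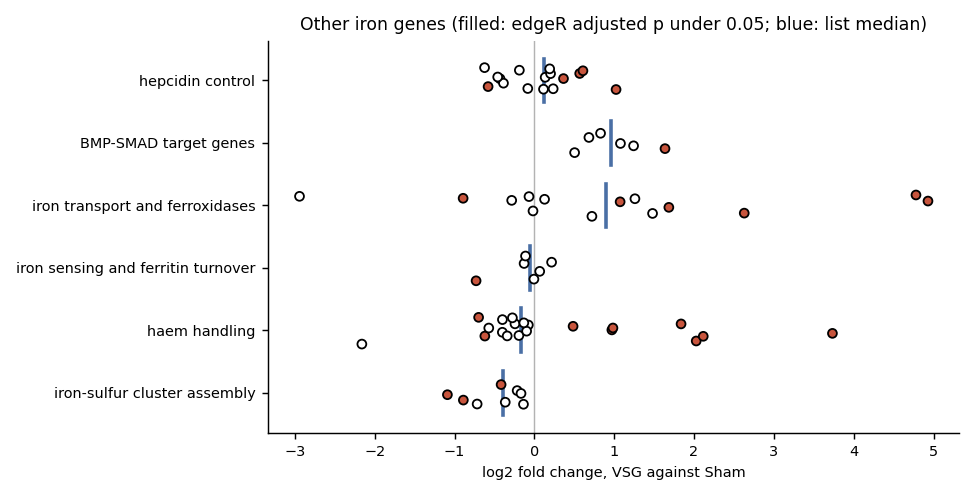
Log2 fold change of VSG against Sham (horizontal axis) for the 70 tested genes of 6 iron lists, 1 point a gene, filled for an edgeR adjusted p under 0.05, with the list median as a blue line. BMP-SMAD targets all lie above 0 (median 0.95), the iron-sulfur cluster genes all lie below 0 (median -0.39), and the largest positive changes are in the transport list.

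Of the 18 genes of the hepcidin control list, 16 were tested, 4 rose, 1 fell and 11 did not pass (median 0.12). Among all tested genes 6.79% were called higher and 7.87% lower. Stat3, the transcription factor downstream of interleukin-6, rose from 126 ± 7.83 to 257 ± 26.0 CPM (log2FC 1.02, SE 0.12, adjusted p 0.00809, or 0.0558 without Sham 3). Il6st, the shared signalling receptor gp130, rose from 264 ± 12.3 to 402 ± 11.0 CPM (0.61, SE 0.11, adjusted p 0.0218). Smad1, a carrier of the BMP signal, rose from 16.9 ± 0.820 to 25.0 ± 2.48 CPM (0.57, SE 0.11, adjusted p 0.0229). Smad5, named after its values were seen, rose with a log2 fold change of 0.36 (adjusted p 0.0480), a call lost without any 1 of the 6 libraries (0.0693 to 0.155), with voom (0.0526), limma on FPKM (0.0579), total counts (0.387) and the looser filter (0.128), and past the threshold in 3 of 13 alternatives.

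Hemojuvelin, the BMP co-receptor listed as Hfe2, fell from 105 ± 6.42 to 70.3 ± 11.2 CPM (log2FC -0.58, SE 0.14, adjusted p 0.0357). The Il6st and Smad1 calls were lost without Sham 1, Sham 2, Sham 3 or VSG 6 (adjusted p 0.0542 to 0.120) and with scaling by total counts (0.0761 and 0.103). The Hfe2 call was lost without Sham 1, Sham 2, Sham 3, VSG 4 or VSG 6 (0.0754 to 0.124). Tmprss6, the protease that cleaves hemojuvelin (log2FC -0.43, SE 0.19, adjusted p 0.160), Bmp2 (-0.19, SE 0.26, adjusted p 0.629) and the interleukin-6 receptor gene Il6ra (-0.08, SE 0.38, adjusted p 0.894) did not pass. Il6 had 0 to 5 and Erfe, the erythroid suppressor of hepcidin, 0 to 3 counts per library, and neither was tested. Erythroid markers summed to 136 to 201 CPM in Sham and 188 to 293 CPM in VSG livers, with none of the 9 tested called, and Ermap was at 0 in Sham 2 and Sham 3.

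All 6 BMP-SMAD target genes had a positive log2 fold change (median 0.95), and 1 of them, the transcription factor Atoh8, passed the test. Over all tested genes 7569 of 14454 had a positive log2FC and 6.79% were called higher, so 1 call in 6 genes says little about the list. Atoh8 was at 8.64, 4.84 and 6.34 CPM in Sham and 20.5, 24.1 and 17.2 CPM in VSG livers (1.64, SE 0.24, adjusted p 0.0121, or 0.0729 without Sham 3). The groups were well apart for Atoh8. Id1, an inhibitor of helix-loop-helix factors, was at 7.09, 4.25 and 4.22 CPM in Sham and 11.1, 13.2 and 3.39 CPM in VSG livers (0.83, SE 0.49, adjusted p 0.271). Smad7, the inhibitory SMAD, had a log2 fold change of 0.68 (SE 0.21, adjusted p 0.0739). Smad7 was past the threshold in 1 of 13 alternative fits, Id2 (1.24, SE 0.34, edgeR adjusted p 0.0550) in 3, and Id1, Id3 and Smad6 in 0. For Id1, VSG 6 was the lowest liver of all, and each of the 6 target genes was lowest in VSG 6 among the VSG livers, as was Hamp. Over all tested genes VSG 6 was the lowest VSG liver in 27.9%.

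Of the 16 genes of iron transport and ferroxidases, 14 were tested, 5 rose, 1 fell and 8 did not pass (median 0.90). These counts stand beside 6.79% called higher and 7.87% lower among all tested genes. Scara5, a receptor for ferritin, was at 5.02, 1.83 and 2.81 CPM in Sham and 127, 71.0 and 99.4 CPM in VSG livers, with no VSG liver near the Sham range. Its log2FC of 4.93 (SE 0.41, adjusted p 0.00300) was called in all 13 alternative fits. Lcn2, which binds iron-carrying siderophores, rose from 136 ± 64.5 to 3737 ± 3060 CPM (4.78, SE 0.95, adjusted p 0.0249), with a log2FC of 4.08 without VSG 4. Steap4, a metalloreductase, rose from 310 ± 59.9 to 1914 ± 1010 CPM (2.63, SE 0.48, adjusted p 0.0205). Both sets of VSG values were widely spread.

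Cp, the ferroxidase ceruloplasmin, rose from 1960 ± 267 to 6296 ± 2986 CPM (log2FC 1.68, SE 0.42, adjusted p 0.0437). Slc39a14, an importer of iron not bound to transferrin, rose from 306 ± 77.4 to 643 ± 119 CPM (1.07, SE 0.23, adjusted p 0.0313). Heph, the membrane ferroxidase hephaestin, named after its values were seen, fell from 3.92 ± 0.332 to 2.11 ± 0.395 CPM (-0.89, SE 0.21, adjusted p 0.0374). The Lcn2 and Steap4 calls were lost without any 1 Sham library or VSG 6 (adjusted p 0.0504 to 0.117), those of Cp and Heph without any 1 library but VSG 5 (0.0773 to 0.162), and that of Slc39a14 without Sham 1, Sham 3, VSG 4 or VSG 6 (0.0690 to 0.134). Heph was also lost with scaling by total counts (0.0510) and Cp with limma on log2(FPKM + 1) (0.0613). Neutrophils are rich in Lcn2. All 8 neutrophil markers (Mpo, Elane, Prtn3, Ngp, Ltf, S100a8, S100a9, Retnlg) rose, their sum was 14.1, 2.70 and 4.52 CPM in Sham and 1782, 146 and 819 CPM in VSG livers, and Mpo was at 0 in Sham 2. Their part in the Lcn2 values was not tested.

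**Figure D5:**
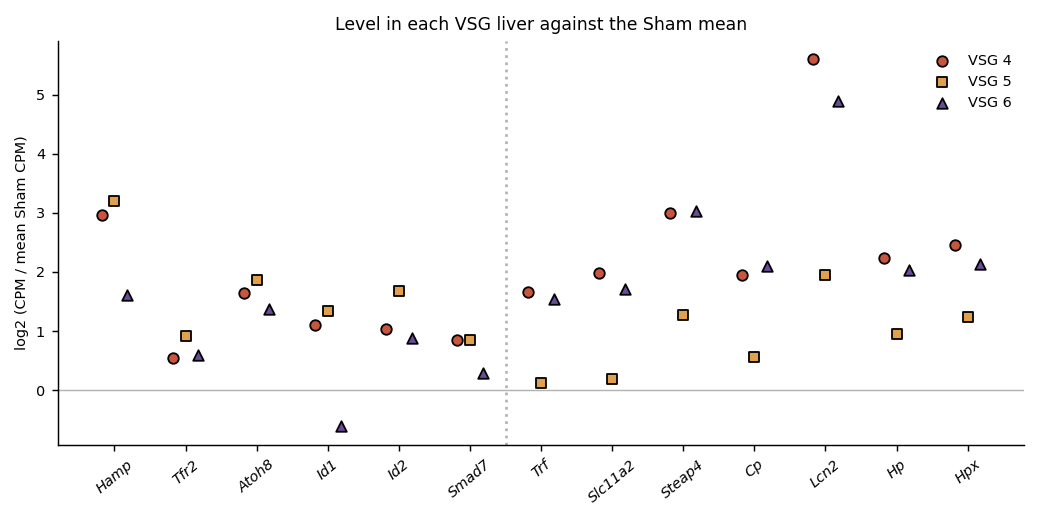
Level of 13 genes in VSG 4 (circles), VSG 5 (squares) and VSG 6 (triangles) as log2 of CPM over the mean Sham CPM (vertical axis, 0 is the Sham mean). Left of the dotted line VSG 5 is the highest VSG liver for Hamp (3.20), Tfr2, Atoh8, Id1, Id2 and Smad7, and right of it VSG 5 is the lowest for Trf (0.11), Slc11a2, Steap4, Cp, Lcn2, Hp and Hpx. Id1, Id2, Smad7, Trf and Slc11a2 did not pass the test of VSG against Sham.

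The VSG livers did not rank alike for all iron genes, a pattern chosen after the values were seen and given as a description. Relative to the mean Sham CPM, Hamp stood at 2.97, 3.20 and 1.61 on the log2 scale in VSG 4, 5 and 6, and Trf at 1.66, 0.11 and 1.54. VSG 5 thus had the highest Hamp and the lowest Trf of the VSG livers. Tfr2, Atoh8, Id1, Id2 and, by little, Smad7 were also highest in VSG 5. Slc11a2, a divalent metal importer (1.99, 0.19 and 1.71), Steap4 (2.996, 1.27 and 3.03), Cp (1.95, 0.56 and 2.11) and Lcn2 (5.61, 1.96 and 4.90) were lowest in VSG 5. Of these genes, Trf, Id1, Smad7, Id2 (edgeR adjusted p 0.0550) and Slc11a2 (0.0635) did not pass the test between the groups. Of the 14 tested transport genes, VSG 5 was the lowest VSG liver in 6 (42.9%) and the highest in 5 (35.7%), and of the 6 BMP-SMAD targets it was the highest in 5, with Id3 highest in VSG 4. Over all tested genes, VSG 5 was the highest VSG liver in 36.0% and the lowest in 36.1%, so the transport list as a whole lay near that background. The neutrophil and Kupffer marker sums were also lowest in VSG 5 among the VSG livers, and their part in these values was not tested.

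Of 7 genes of iron sensing and ferritin turnover, 6 were tested and 1, Aco1, passed. With 14.7% of all tested genes called, this count is near the background and says little about the list. Aco1 encodes cytosolic aconitase, which becomes iron regulatory protein 1 when it loses its iron-sulfur cluster, and fell from 266 ± 46.8 to 160 ± 25.2 CPM (log2FC -0.73, SE 0.18, adjusted p 0.0425). The call was lost without any 1 library but VSG 5 (adjusted p 0.0540 to 0.133). Ireb2, iron regulatory protein 2 (0.21, SE 0.17, adjusted p 0.397), and Ncoa4, the receptor that takes ferritin to lysosomes (-0.01, SE 0.15, adjusted p 0.978), did not pass. Ftmt, mitochondrial ferritin, was at 0 in all 6 libraries, a count that allows at most 3 in each.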

How the data were processed

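Liver RNA of 3 Sham and 3 VSG mice was analysed, with groups from the sample titles. The authors deposited raw read counts per gene. Per the labels and methods, reads were checked with FastQC 0.10.1, aligned with STAR 2.6.0 to mm10 and counted with featureCounts. The featureCounts version is 2.0.3 in the submitters' processing notes, while the study's methods give an earlier one. Annotation release, strand setting and multi-mapping rule are not given in the sources used here. Of 55385 genes, 55144 were matched to GENCODE M21. The table's exon lengths entered FPKM only.

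Counts were tested in R 4.3.3 with edgeR 4.0.16 (filterByExpr, minimum count 10 and total 15; TMM; quasi-likelihood test, group as the only term), and checked on simulated data. Alternatives used limma 3.58.1 and DESeq2 1.42.0. Replicates of a group differed beyond counting noise (chi-square per degree of freedom at least 25.2). Named genes were the members, up to 4 called genes with the largest change in each list (mean of at least 1 CPM), a fixed set of regulators, and the 5 genes most like Hamp. The members and lists were chosen with earlier results of these data known.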

Additional observations from a re-analysis of the deposited data

How the results depend on the processing

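Alternatives were total counts, RLE factors, 2 other low-count filters, DESeq2, limma on FPKM, voom, and leaving out each library. RLE factors and the looser filter left the side of the threshold as it was for all 10 members. DESeq2 called 3288 genes in place of 2118 and 7 members in place of 4, adding Trf (adjusted p 0.00763), Slc40a1 (0.0417) and Fth1 (0.00235). Leaving out single libraries gave 159 to 2732 genes, 1 to 4 members and 1 to 26 other iron genes. With total counts the median of all genes moved from 0.03 to -0.11 and the split of higher and lower calls from 981 and 1137 to 486 and 1512. There Tfr2 stayed positive (0.56) but lost its call (adjusted p 0.0603). On the log2(FPKM + 1) scale, which understates the change of low genes, Hamp2 (-3.74), Scara5 (3.48), Cd163 (2.88) and Heph (-0.25) had smaller changes. Signs turned, all without a call, for 5 genes as single libraries were left out: Hfe ran from -0.24 to 0.0048 and Tfrc from -0.41 to 0.10 (both positive without VSG 5), Bmp2 from -0.47 to 0.0502 (without Sham 2), Il6ra from -0.40 to 0.34 (positive without Sham 2 and, at 0.04, without VSG 4) and Ncoa4 from -0.10 to 0.12 (positive without Sham 2 and, at 0.04, without VSG 5). Il6ra was also positive with voom (0.0023) and limma on FPKM (0.0096), and Ncoa4 with voom (0.0068). The log2 Fth1 to Ftl1 difference ran from -0.0497 without VSG 4 to 0.307 without VSG 5. The cause of these turns was not tested. No paired analysis was possible because the sample numbers are not shared between the groups. Counts were low for Hamp2 in VSG livers (5 to 17) and for Bmp6 (67 to 156 per library).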

Other observations

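Haem and iron-sulfur genes, which use or recover iron, were the remaining lists. Of 20 genes of haem handling 7 rose, 2 fell and 11 did not pass the test (median log2 fold change -0.16), beside 6.79% higher and 7.87% lower over all tested genes. Cd163, the macrophage receptor for haptoglobin-haemoglobin, was at 2.14, 11.1 and 5.74 CPM in Sham and 71.7, 47.8 and 130 CPM in VSG livers (3.73, SE 0.64, adjusted p 0.0176 by edgeR), with a log2 fold change of 4.40 without Sham 2. Hmox1, haem oxygenase 1, was at 48.6, 28.0 and 37.6 CPM in Sham and 241, 104 and 150 CPM in VSG livers (2.11, SE 0.35, adjusted p 0.0163). No VSG liver overlapped the Sham livers in either gene. The plasma scavengers of haem and haemoglobin also rose, hemopexin (Hpx) from 4370 ± 774 to 17806 ± 6976 CPM (2.03, SE 0.41, adjusted p 0.0260) and haptoglobin (Hp) from 3702 ± 306 to 13224 ± 5379 CPM (1.84, SE 0.39, adjusted p 0.0296). The other genes were named after their values were seen. Lrp1, the hemopexin receptor (0.97, adjusted p 0.0201), the haem exporter Flvcr1 (0.98, 0.0407) and Hmox2 (0.48, 0.0216) rose, while the biliverdin reductase Blvrb (-0.62, 0.0245) and the haem synthesis enzyme Alad (-0.70, 0.0497) fell. Alas1, also of haem synthesis, had the most negative log2 fold change of the list (-2.16, SE 0.58). Its groups did not overlap, but it did not pass the test (adjusted p 0.0513). Without Sham 3 none of these 9 calls held (adjusted p 0.0876 to 0.164), nor without VSG 6 (0.0649 to 0.111). Those of Lrp1 and Blvrb were also lost without Sham 2 (0.0597 and 0.0654), and those of Hp, Hpx, Flvcr1, Hmox2 and Alad without Sham 1, Sham 2 or VSG 4 (0.0503 to 0.128). Other processing also ended calls: those of Hp (0.0695), Hpx (0.0655), Flvcr1 (0.0539) and Alad (0.0601) with limma on FPKM, of Flvcr1 (0.0515) and Alad (0.0546) with voom, of Flvcr1 (0.103) and Hmox2 (0.0915) with total counts, and of Alad with RLE factors (0.0521). The Kupffer marker sum was higher in every VSG liver than in any Sham liver (by little in VSG 5, at 616 against 605 CPM in Sham 1), as were Cd163 and Hmox1, and its part was not tested. The libraries ranked alike within each group for Hmox1 and that sum but not for Cd163, which was lowest in Sham 1 and highest in VSG 6.

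All 8 genes of iron-sulfur cluster assembly had a negative log2 fold change (median -0.39), and 3 of them fell. Over all tested genes 6885 of 14454 had a negative log2 fold change and 7.87% were called lower. Glrx5, a glutaredoxin that passes clusters on, was at 51.9, 77.9 and 66.7 CPM in Sham and 27.9, 32.6 and 31.8 CPM in VSG livers (-1.09, SE 0.16, adjusted p 0.0130). Iscu, the assembly scaffold, was at 24.4, 30.0 and 29.9 CPM in Sham and 13.8, 15.6 and 15.9 CPM in VSG livers (-0.89, SE 0.12, adjusted p 0.0107). Nfs1, the sulfur donor enzyme, fell from 52.4 ± 5.22 to 39.2 ± 1.85 CPM (-0.42, SE 0.10, adjusted p 0.0416). In Glrx5 and Iscu the groups were well apart. Both calls were lost without Sham 3 (0.0684 and 0.0632) and without VSG 6 (0.0623 and 0.0542), and that of Nfs1 without any 1 library but Sham 1 (0.0519 to 0.152) and with limma on FPKM (0.0506).

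Among 9964 genes with a mean of at least 5 CPM, the 5 whose log2 CPM followed Hamp most closely over the 6 livers were Gucy2c, Onecut1, Slc43a1, Gm4673 and Slc37a1, with a root mean square difference of 0.43, 0.47, 0.55, 0.56 and 0.64. Onecut1, a liver transcription factor, was at 4.73, 3.93 and 2.36 CPM in Sham and 24.8, 26.7 and 6.54 CPM in VSG livers. Gucy2c, the guanylate cyclase receptor of gut peptides, was at 3.03, 0.594 and 0.684 CPM in Sham and 16.1, 10.0 and 4.87 CPM in VSG livers. These genes were chosen for following Hamp over the same 6 livers, so their pattern is a description. Of the listed iron genes that reached this level, Atoh8 was the nearest, at rank 33 (0.81).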
